A study of Mus musculus with 12 samples.

Results

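Estrus was set against proestrus in the oviduct of ICR mice, an outbred stock, with the 3 estrus arrays and the 3 proestrus arrays of the series, 6 of its 12 arrays, taken by the stage in their labels. Both groups were mice of 6 weeks for which the labels name no treatment, transgene or other allele, and by the labels they differ in the stage of the estrous cycle alone. The series covers metestrus and diestrus as well, with 3 arrays each, on a 1-colour Illumina bead array. The labels do not say how the ovary was trimmed away or whether ovulated oocytes were left in the tubes. Nor do they say whether the arrays of a stage came from separate animals, so a p-value here covers no more than the spread among these arrays.

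The proestrus day ends with the surge of luteinising hormone. By estrus the follicles have ruptured, and the oocytes, wrapped in their cumulus cells, lie in the ampulla of the oviduct. Estradiol is high during proestrus and falls after the surge, while the granulosa and theca cells of the ruptured follicles turn to making progesterone. The oviduct answers both hormones through their nuclear receptors, in secretory and ciliated epithelial cells, stroma and smooth muscle.

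Values are log2 intensities after background correction and quantile normalization over the 12 arrays. A difference is estrus minus proestrus on that scale with its standard error (SE, n = 3 arrays per stage), and a gene was called when limma's moderated test gave a Benjamini-Hochberg adjusted p under 0.05 over all 10144 genes tested. Between 50.3% and 56.7% of the probes were detected on the estrus arrays and between 48.6% and 55.6% on the proestrus arrays. The replicate 1 arrays, a separate array set, were brighter than the others, with median raw intensities of 156 at estrus and 147 at proestrus, against 101 to 104 on the other estrus arrays and 101 to 103 on the other proestrus arrays. Genes of the oviduct epithelium were present at both stages: Pax8, a transcription factor of its secretory cells, and Foxj1, the transcription factor of ciliated cells, were detected on all 6 arrays. Of the 9 secretory and 17 ciliated cell genes tested, none was called, and their median differences were 0.07 and 0.05. Ovgp1, which encodes the oviductin that secretory cells release, was at 15.36, 14.99 and 15.07 on the estrus arrays and at 15.50, 14.80 and 14.89 on the proestrus arrays, and the groups overlapped (0.08 ± 0.27, adjusted p = 1). In whole tissue, fewer cells of a type and less RNA per cell cannot be told apart.

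Between estrus and proestrus, 103 genes differed, which is 1.02% of those tested. Of these, 87 rose (0.858%) and 16 fell (0.158%), while over all genes tested the median difference was 0.00479 and 51.1% of differences were positive. The 3 estrus arrays lay above the 3 proestrus arrays for each of the 87 and below them for each of the 16, and among all genes tested the arrays parted in this way for 7.67% upward and 5.73% downward. Where a gene was undetected at one stage, its size is given as a lower bound, and on that footing 53 rose over 2-fold and 16 over 4-fold, whereas 5 fell over 2-fold. Of the genes that rose, 24 were not detected on any proestrus array and 56 were detected on all 6 arrays, whereas 15 of the 16 that fell were detected on all 6. Taking the replicate number into the fit as a block raised the calls to 310 (3.06%), with 225 higher (2.22%) and 85 lower (0.838%), and all 103 were among them. These shares over all genes tested are the ones to set beside the counts of each gene list below. The higher genes made up 84.5% of the calls without the block and 72.6% with it. Leaving out 1 array gave 57 calls without estrus 2, 59 without estrus 3 and 64 without proestrus 3, and 54 of the 103 were called whichever array was left out. A fit of the 6 estrus and proestrus arrays alone, without the block, called 71 genes, 65 of them among the 103, and of the genes described below it lost the calls of Esr2, Fkbp5, Pgr, Lrat, Txnip, Slc12a8, Omt2b, Tcl1, Oas1d, Serpina1c, Serpina3n, Fzd10, H2-K1, Cldn23, Dclk1, Igfbp2, Arg1, Tmem158, Ly6h, Hspb7 and Padi2. Where the call of a gene named below is lost without an array, that array is given with it. In the authors' own normalized values 31 genes were called, all of them higher, 30 of which belong to the 103.

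**Figure D1:**
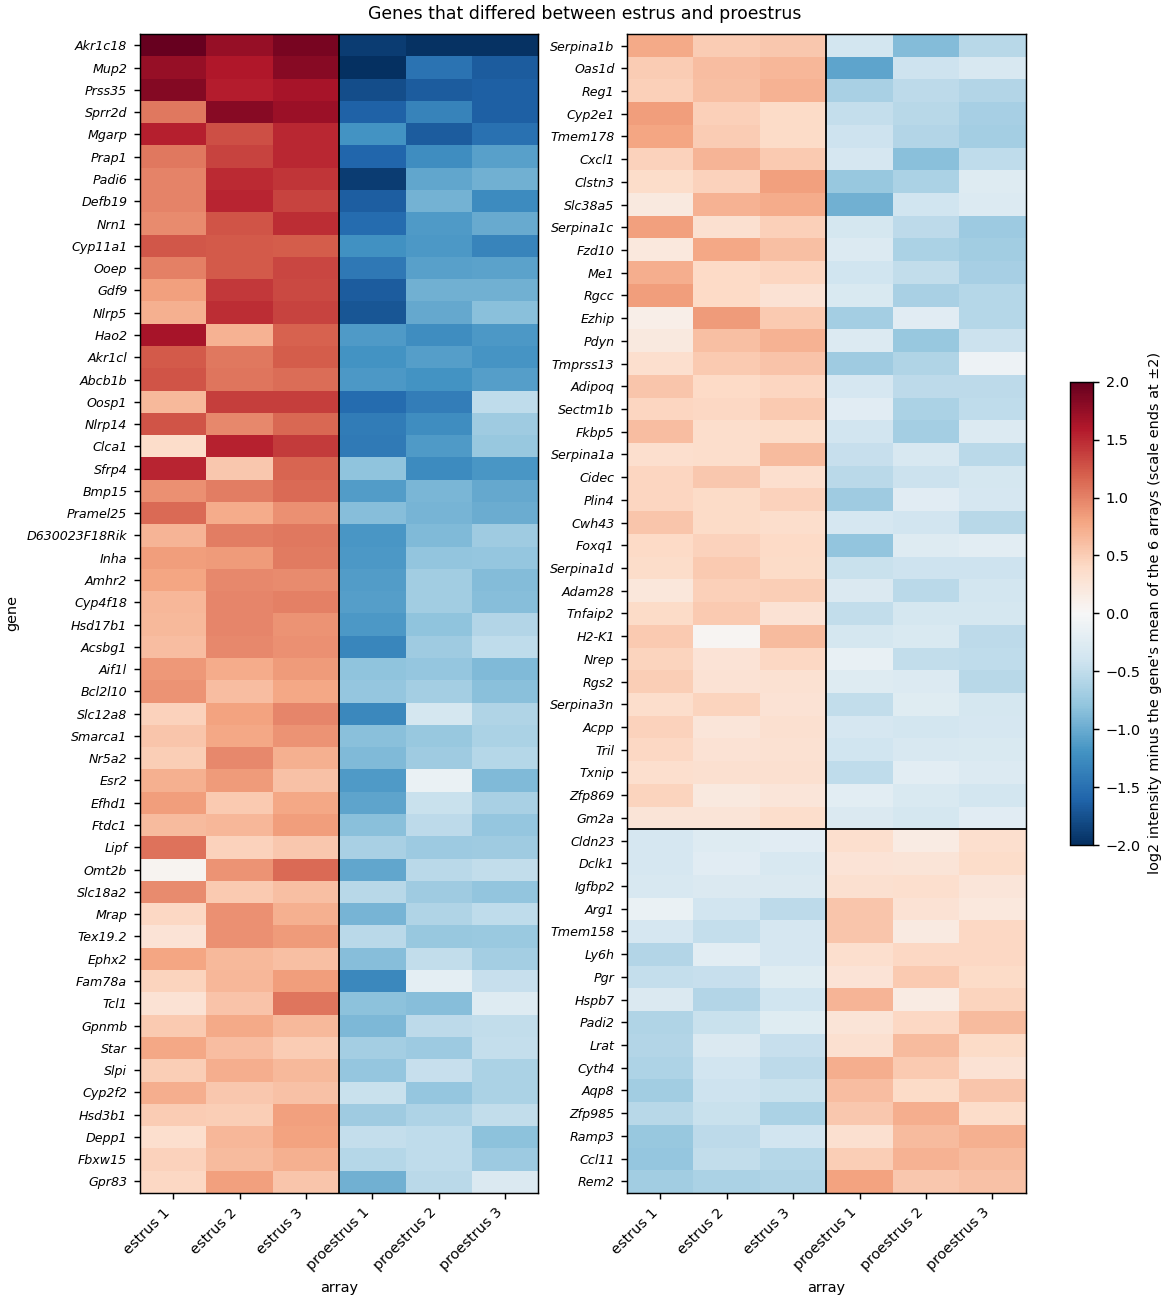
Each row is 1 of the 103 genes that differed, with the 87 that rose and the 16 that fell ordered by the size of the difference, and each column is 1 array, estrus left of proestrus. Colour is the log2 intensity minus the gene's mean over the 6 arrays, and no gene's estrus arrays overlap its proestrus arrays.

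The enzymes that make or inactivate steroid hormones held the largest rise. Of the 14 tested genes of the list of steroid and prostaglandin handling enzymes, 4 rose and none fell, with a median difference of 0.24. Akr1c18, the 20-alpha-hydroxysteroid dehydrogenase that inactivates progesterone, was at 11.16, 10.69 and 10.85 on the estrus arrays and at 7.05, 6.96 and 6.97 on the proestrus arrays. All estrus arrays thus stood far above all proestrus arrays, by about 15-fold (3.90 ± 0.15, adjusted p = 1.1e-07). Akr1cl, a further aldo-keto reductase, was at 11.70, 11.53 and 11.69 at estrus and at 9.29, 9.37 and 9.30 at proestrus (2.32 ± 0.13, adjusted p = 1.9e-06). Both groups were tight, and its second probe, undetected on the proestrus arrays, was at least 2.05-fold higher. An "at least" value sets the estrus mean against the lowest signal of any detected probe on each proestrus array, or the gene's own signal there if that is higher. Hsd17b1, which reduces estrone to estradiol, was at 9.62, 9.94 and 9.87 at estrus and at 7.82, 8.17 and 8.38 at proestrus (1.69 ± 0.28, adjusted p = 0.01). Its groups stood apart, but the call was lost without estrus 2, estrus 3 or proestrus 1 (adjusted p 0.053 to 0.067). Hsd3b1, which makes progesterone from pregnenolone, was detected on no proestrus array and stood at least 1.14-fold higher at estrus (adjusted p = 0.00045). Of the genes of this list that did not pass, the glucocorticoid-inactivating Hsd11b2 had a difference of -0.88 (adjusted p = 0.36) and Cyp1b1, which hydroxylates estrogens, was called only with the replicate block (0.59 ± 0.32, adjusted p = 0.9 without the block and 0.02 with it). Both were picked after their values were seen, as were Cyp17a1, Zp3, Tle6, Fshr, Npr2, Chil1, Timp1 and Nusap1 below.

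Akr1c18 and Hsd3b1 belong to the list of theca and luteal cells, the steroid-making cells of the ovary, as well. Of 12 tested genes, 6 rose and none fell, and the median difference was 1.01, or 0.48 with the "at least" values in place for the 3 genes undetected at proestrus. A gene that passed the detection filter only through its estrus signal had to be higher there. Among the members detected on all 6 arrays 3 of 7 rose, with a median difference of 0.30. Cyp11a1, the enzyme that cleaves the cholesterol side chain, was at 8.73, 8.70 and 8.70 at estrus and at 6.27, 6.33 and 6.16 at proestrus, so that every estrus array lay well above every proestrus array (2.46 ± 0.13, adjusted p = 1.6e-06). Mgarp, a mitochondrial protein of steroid-making tissue, was at 11.23, 10.96 and 11.18 at estrus and at 8.49, 8.01 and 8.18 at proestrus, again with a wide gap (2.90 ± 0.18, adjusted p = 3.7e-06). Sfrp4, a secreted Wnt antagonist, was undetected on the proestrus arrays and at least 2.40-fold higher at estrus (adjusted p = 0.0059). Star, which carries cholesterol into mitochondria, was likewise at least 1.28-fold higher (adjusted p = 0.016), a call lost without any single array except proestrus 3 (adjusted p 0.054 to 0.081). Scarb1, the receptor that takes up cholesterol esters from high-density lipoprotein, was called only with the replicate block (0.81 ± 0.22, adjusted p = 0.19 without the block and 0.0011 with it). The summed linear intensity of the tested genes was 7834 to 8811 at estrus and 3230 to 3875 at proestrus, and it was 3505 to 4593 at metestrus and 3767 to 3962 at diestrus. Such a sum weighs bright genes most, and much of its rise at estrus came from Akr1c18 and Mgarp, both already called. Insl3, made by theca cells, and Nr5a1, a nuclear receptor of steroid-making cells, were detected on none of the 6 arrays, and Cyp17a1, the androgen-making enzyme of theca cells, had a difference of -0.21 (adjusted p = 1).

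Genes of cumulus and granulosa cells were divided: 6 of 18 tested rose, none fell, and the median difference was 0.09. Over all genes tested 0.858% rose. Among the members detected on all 6 arrays 4 of 14 rose, with a median difference of -0.03. Inha, the inhibin alpha subunit, was at 9.98, 10.004 and 10.18 at estrus and at 7.998, 8.36 and 8.37 at proestrus, with no overlap (1.81 ± 0.20, adjusted p = 0.00062). Amhr2, the receptor of anti-Müllerian hormone, was at 8.79, 8.96 and 8.94 at estrus and at 6.88, 7.30 and 7.12 at proestrus, also with no overlap (1.80 ± 0.15, adjusted p = 5.5e-05). Of its dimmer probes, 1 passed (1.27) and 1, undetected at proestrus, did not. Nr5a2, a nuclear receptor of granulosa cells, was at 7.22, 7.69 and 7.45 at estrus and at 5.84, 6.02 and 6.16 at proestrus (1.45 ± 0.19, adjusted p = 0.002), and its second probe, undetected at proestrus, did not pass. The Nr5a2 call was lost when the probes of a gene were averaged. Slc18a2, the vesicular monoamine transporter, was undetected on the proestrus arrays and at least 1.29-fold higher at estrus (adjusted p = 0.0011). Esr2, the estrogen receptor beta of granulosa cells, and Hsd17b1 were the other two. With the replicate block 8 rose and 2 fell, against 2.22% and 0.838% of all genes tested. Fshr, the receptor of follicle-stimulating hormone, and Fst, the activin-binding follistatin, were added as rises. Edn2, an endothelin, and Npr2, a natriuretic peptide receptor, were added as falls. The matrix genes of the expanding cumulus, Has2 and Tnfaip6, and the prostaglandin synthase gene Ptgs2 were detected on none of the 6 arrays. The summed intensity of the tested genes overlapped between estrus, 15476 to 17243, and proestrus, 13484 to 17408.

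Genes of the oocyte held the largest share of calls among the lists. Of 19 tested, 10 rose and none fell, and the median difference was 1.19, or 0.79 with the "at least" values in place for the 8 members undetected at proestrus. Among the members detected on all 6 arrays 4 of 6 rose, with a median of 1.72. The oocyte growth factor gene Gdf9 was at 8.53, 9.13 and 9.03 on the estrus arrays and at 6.05, 6.75 and 6.75 on the proestrus arrays (2.38 ± 0.33, adjusted p = 0.0037). Its partner Bmp15 was at 6.76, 6.88 and 6.98 at estrus, was undetected on the proestrus arrays, and exceeded them at least 2.37-fold (adjusted p = 5.5e-05). Ooep, a component of the subcortical maternal complex that mouse embryos need for their early divisions, was at 8.21, 8.43 and 8.54 at estrus and at 5.78, 6.12 and 6.13 at proestrus (2.38 ± 0.27, adjusted p = 0.00094). All 3 genes were higher on each estrus array than on any proestrus array. Nlrp5, also of that complex, rose (2.37 ± 0.32, adjusted p = 0.0026), and so did Nlrp14 (2.24 ± 0.19, adjusted p = 6.4e-05). Nlrp5 was detected on 2 of 3 proestrus arrays, and its second probe, undetected at proestrus, did not pass. Padi6, which is needed for the cytoplasmic lattices of the egg, was at 7.75, 8.26 and 8.19 at estrus, against 4.86, 5.73 and 5.80 at proestrus, where it was not detected, at least a 5.39-fold difference (adjusted p = 0.0013). Bcl2l10, a member of the Bcl2 family, was undetected at proestrus as well and at least 1.34-fold higher (adjusted p = 5.3e-05). The calls of 3 further oocyte genes were lost when certain single arrays were left out. Oosp1, an oocyte-secreted protein gene, was at least 3.14-fold higher (adjusted p = 0.008), a call lost without estrus 2 or estrus 3 (adjusted p 0.051 to 0.055). Oas1d, an oocyte member of the oligoadenylate synthetase family, rose (1.19 ± 0.21, adjusted p = 0.016), a call lost without estrus 2 or estrus 3 (adjusted p 0.077 to 0.085). Tcl1 was at least 1.42-fold higher (adjusted p = 0.025), a call lost without estrus 2, estrus 3, proestrus 1 or proestrus 2 (adjusted p 0.095 to 0.13).

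Of the oocyte genes that did not pass, the zona pellucida gene Zp3 was at 6.47, 6.92 and 6.91 at estrus and at 5.25, 5.74 and 6.36 at proestrus and was called only with the replicate block (0.98 ± 0.33, adjusted p = 0.36 without the block and 0.014 with it), as was Tle6 of the subcortical maternal complex (0.69 ± 0.19, adjusted p = 0.21 without the block and 0.012 with it), which made 12. A further 18 listed genes on the array were too rarely detected to test, among them Zp1, Zp2, Mos and Ddx4, which were detected on none of the 6 arrays. The summed intensity of the tested genes was 3020 to 3774 at estrus and 1172 to 1544 at proestrus, with 1286 to 1572 at metestrus and 1847 to 2262 at diestrus. Genes of the oocyte list and some of the theca and luteal list thus rose beside the other rises given here. The part of these cells in those rises was not tested. Some other germ-cell genes, not all of them specific to the egg, were on no list. Of these, Pramel25 was undetected at proestrus and at least 1.74-fold higher at estrus (adjusted p = 0.0013). Omt2b and Tex19.2, picked after their values were seen, were undetected at proestrus as well and at least 1.68-fold and 1.18-fold higher (adjusted p = 0.022 and 0.0082). The Omt2b call was lost without any single array except estrus 1 (adjusted p 0.057 to 0.12), and that of Tex19.2 was lost without estrus 2 or estrus 3 (adjusted p 0.054 to 0.058).

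The windows around the annotated RefSeq starts of Akr1c18 and Inha are shown as examples of genes that rose in the ovarian lists. Both were picked from those whose windows hold the letters AGGTCA. The windows of Esr2, Hsd3b1, Mgarp and Slc18a2, which rose as well, do not hold it and are not shown. AGGTCA is a core that nuclear receptors bind, and neither window holds the longer AAGGTCA. The windows run from 250 bases before to 50 bases after the gene's start in RefSeq (GRCm38.p6), at chr13:4150597-4150896 on the minus strand and chr1:75507359-75507658 on the plus strand, and capitals mark AGGTCA, which was searched on both strands.
Akr1c18: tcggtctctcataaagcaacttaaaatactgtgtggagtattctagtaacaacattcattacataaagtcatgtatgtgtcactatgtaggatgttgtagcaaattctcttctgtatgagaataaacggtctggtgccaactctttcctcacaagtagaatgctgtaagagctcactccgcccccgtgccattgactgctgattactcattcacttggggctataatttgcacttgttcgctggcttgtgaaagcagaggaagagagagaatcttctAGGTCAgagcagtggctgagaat
Inha: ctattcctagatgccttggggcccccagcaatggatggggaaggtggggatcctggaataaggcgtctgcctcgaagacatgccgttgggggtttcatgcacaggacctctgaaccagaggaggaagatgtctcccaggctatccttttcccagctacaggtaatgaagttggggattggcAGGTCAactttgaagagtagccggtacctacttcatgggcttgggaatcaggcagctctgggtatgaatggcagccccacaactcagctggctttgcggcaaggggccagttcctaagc
Of the 12 genes of both ovarian somatic lists that rose, 9 had such a window and 5 held AGGTCA, namely Akr1c18, Amhr2, Cyp11a1, Inha and Nr5a2. Over all genes tested, 15.5% of the 8216 with a window held it, as did 16.9% of the 71 genes that rose and 18.2% of the 11 that fell. The longer AAGGTCA, which contains it, was in 1 of the 9 (Amhr2) and in 4.1% of all, and TGACGTCA, the cyclic AMP response element, in 1 of the 9 (Slc18a2) and in 3.37% of all, both strands searched. These matches describe the letters of the windows only. The AGGTCA of Akr1c18 lies after the annotated start. The Inha window opens with letters that read as protein code without a stop, up to a gtaatg like a splice donor. Its AGGTCA comes after that, so this window appears to lie within the gene and not at its promoter. Whether the other windows hold the promoter used in the oviduct was not tested.

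Prss35, Prap1, Sprr2d and Clca1, which encode secreted or epithelial proteins, rose as well. Prss35, a serine protease-like gene known from the mouse ovary, was at 10.51, 10.23 and 10.32 at estrus and at 6.90, 7.01 and 7.04 at proestrus, with a wide gap between the groups (3.37 ± 0.18, adjusted p = 1.6e-06). Prap1, a secreted proline-rich protein known from the uterine epithelium, was at 10.24, 10.53 and 10.69 at estrus and at 7.59, 7.93 and 8.09 at proestrus, with no overlap (2.62 ± 0.38, adjusted p = 0.0053). Sprr2d, a small proline-rich protein of the cornified envelope, was at 7.17, 7.95 and 7.83 at estrus and was undetected at proestrus, so that it was at least 4.05-fold higher (adjusted p = 3.7e-06). Its relative Sprr2f was at 10.19, 9.69 and 9.55 at estrus and at 9.003, 8.38 and 8.29 at proestrus and was called only with the replicate block (1.25 ± 0.30, adjusted p = 0.094 without the block and 0.041 with it). Clca1, a secreted protein of mucous epithelia, was undetected at proestrus and at least 2.49-fold higher at estrus (adjusted p = 0.002). Sprr2d was the one gene of 19 on the cornified envelope and keratin list to be called without the block, and the median of that list was 0.04.

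Of the 22 antimicrobial and acute-phase proteins tested, 2 rose and none fell, and the median difference was 0.34. Defb19, a beta-defensin, was at 7.62, 8.17 and 7.99 at estrus and at 4.99, 5.69 and 5.38 at proestrus, where it was undetected, at least a 4.90-fold difference (adjusted p = 0.00045). Slpi, a secreted inhibitor of leukocyte proteases, was at 8.42, 8.65 and 8.57 at estrus and at 7.16, 7.46 and 7.30 at proestrus (1.24 ± 0.24, adjusted p = 0.033). The Slpi arrays did not overlap, but its call was lost without any single one of the 6 arrays (adjusted p 0.078 to 0.16). With the replicate block 5 of the list rose, the additions being Wfdc10, a whey acidic protein domain gene (0.87 ± 0.19, adjusted p = 0.055 without the block and 0.027 with it), Camp, the cathelicidin of neutrophils (0.83 ± 0.20, adjusted p = 0.11 without the block and 0.037 with it), and Chil1, a chitinase-like lectin. Of the 11 neutrophil genes tested, Camp alone passed, and it only with the block, while 10 had a positive difference and the median was 0.39, or 0.29 over those detected on all 6 arrays. Their summed intensity was 42052 to 50252 at estrus and 33087 to 41093 at proestrus, and the neutrophil genes Mmp8, Cxcr2 and Itgam were detected on none of the 6 arrays. The part of neutrophils in the antimicrobial rises was not tested.

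The alpha-1-antitrypsin genes Serpina1a to Serpina1d, which encode inhibitors of serine proteases such as neutrophil elastase, rose together. With Prss35 and Serpina3n they made up the 6 rises among 27 serine proteases and serpins tested, none of which fell (median difference 0.05). Their promoter windows in RefSeq (GRCm38.p6, all on the minus strand) are printed to show how alike these windows are, at chr12:103738140-103738439, chr12:103863570-103863869, chr12:103904901-103905200 and chr12:103773584-103773883. Capitals mark the bases that differ from Serpina1b where the windows align.
Serpina1b: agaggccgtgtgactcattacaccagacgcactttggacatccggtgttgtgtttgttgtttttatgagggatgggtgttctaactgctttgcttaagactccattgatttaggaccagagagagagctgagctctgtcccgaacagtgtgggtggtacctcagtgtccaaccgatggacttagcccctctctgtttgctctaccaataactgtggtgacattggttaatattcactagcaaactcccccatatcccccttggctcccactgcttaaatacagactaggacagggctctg
Serpina1a: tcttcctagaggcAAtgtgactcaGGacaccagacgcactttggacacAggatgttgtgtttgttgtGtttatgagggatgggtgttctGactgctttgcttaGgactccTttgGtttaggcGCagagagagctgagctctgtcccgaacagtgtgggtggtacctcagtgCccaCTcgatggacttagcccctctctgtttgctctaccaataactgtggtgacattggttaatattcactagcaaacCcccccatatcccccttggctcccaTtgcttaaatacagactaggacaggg
Serpina1c: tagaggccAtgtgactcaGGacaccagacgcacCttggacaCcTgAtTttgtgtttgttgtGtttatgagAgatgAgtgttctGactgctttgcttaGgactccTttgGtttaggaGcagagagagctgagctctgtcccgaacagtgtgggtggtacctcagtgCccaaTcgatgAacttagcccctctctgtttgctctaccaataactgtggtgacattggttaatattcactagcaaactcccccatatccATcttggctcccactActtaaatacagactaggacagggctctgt
Serpina1d: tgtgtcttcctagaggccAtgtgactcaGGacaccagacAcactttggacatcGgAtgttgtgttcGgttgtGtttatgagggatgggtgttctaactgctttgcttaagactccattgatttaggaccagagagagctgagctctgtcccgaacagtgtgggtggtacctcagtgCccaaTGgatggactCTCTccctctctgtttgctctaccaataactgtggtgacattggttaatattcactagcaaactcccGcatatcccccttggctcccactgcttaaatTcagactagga
Over the aligned bases, with gaps left out, Serpina1a was 94.2% identical to Serpina1b (17 of 292 bases differed), Serpina1c 92.6% (22 of 298) and Serpina1d 94.1% (17 of 288). Probe sequences were not compared. A probe of one copy may bind RNA of another, so which copies rose is uncertain and the 4 values may not be independent. Serpina1b was at 9.33, 9.08 and 9.10 at estrus and at 8.20, 7.70 and 8.02 at proestrus (1.20 ± 0.21, adjusted p = 0.018), a call lost without any single array except proestrus 1 (adjusted p 0.07 to 0.092), and its second probe also rose, by 0.92. Serpina1d was at 8.05, 8.20 and 8.07 at estrus and at 7.24, 7.27 and 7.27 at proestrus, where its arrays lay close together (0.84 ± 0.11, adjusted p = 0.0014). Serpina1c, detected on 1 of 3 proestrus arrays, rose as well (1.07 ± 0.16, adjusted p = 0.0059). Serpina1a was undetected on all proestrus arrays and on 1 of 3 estrus arrays and was at least 1.02-fold higher (adjusted p = 0.01), a call lost without estrus 3 or proestrus 3 (adjusted p 0.064 to 0.065), which also did not hold when its probes were averaged, and its second probe, undetected at proestrus, did not pass. Serpina3n, an acute-phase serpin, was at 9.80, 9.89 and 9.73 at estrus and at 8.96, 9.21 and 9.10 at proestrus (0.72 ± 0.15, adjusted p = 0.045), a call lost without any single one of the 6 arrays (adjusted p 0.093 to 0.23). Serpina5, the protein C inhibitor, was called only with the replicate block (1.003 ± 0.21, adjusted p = 0.055 without the block and 0.0012 with it).

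The remaining large rises were of mixed function. Mup2, a major urinary protein gene, was at 9.64, 9.49 and 9.72 at estrus and at 5.86, 6.41 and 6.23 at proestrus (3.45 ± 0.19, adjusted p = 1.6e-06). Its family has many near-identical copies that the probe may not tell apart, and its second probe, undetected at proestrus, was at least 1.37-fold higher. Abcb1b, a P-glycoprotein that exports drugs and steroids, was at 9.06, 8.87 and 8.92 at estrus and at 6.66, 6.61 and 6.71 at proestrus, with all estrus arrays far above (2.29 ± 0.14, adjusted p = 3.7e-06). Nrn1, which encodes neuritin and was detected on 2 of 3 proestrus arrays, rose (2.46 ± 0.18, adjusted p = 2e-05). Hao2, a peroxisomal hydroxyacid oxidase, was undetected at proestrus and at least 2.32-fold higher at estrus (adjusted p = 5.3e-05), and Acsbg1, an acyl-CoA synthetase, at least 2.44-fold higher (adjusted p = 0.003). Cyp4f18, a fatty acid hydroxylase, was at 8.06, 8.38 and 8.42 at estrus and at 6.30, 6.72 and 6.56 at proestrus, with no overlap (1.76 ± 0.20, adjusted p = 0.00092), although its second probe, undetected at proestrus, did not pass. Aif1l, an actin-binding protein gene, rose too (1.64 ± 0.13, adjusted p = 5.3e-05). Slc12a8, of the cation-chloride cotransporter family, rose (1.49 ± 0.30, adjusted p = 0.036), a call lost without any single array except proestrus 2 (adjusted p 0.062 to 0.19). Metabolic enzymes picked after their values were seen were Ephx2, the soluble epoxide hydrolase (1.35 ± 0.17, adjusted p = 0.0013), Cyp2e1 (1.13 ± 0.15, adjusted p = 0.003) and Cyp2f2 (1.23 ± 0.14, adjusted p = 0.00077).

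Of 8 adipocyte genes tested, 2 rose, none fell and the median difference was 0.05, and 3 of the 8 had a negative difference, among them Lipe, the hormone-sensitive lipase (-0.23, adjusted p = 1). Adipoq, the hormone adiponectin, was at 10.28, 10.13 and 10.16 at estrus and at 9.39, 9.21 and 9.21 at proestrus (0.92 ± 0.16, adjusted p = 0.018), a call lost without any single array except proestrus 1 (adjusted p 0.076 to 0.095). Cidec, a lipid droplet protein, was at 7.43, 7.54 and 7.34 at estrus and at 6.45, 6.57 and 6.65 at proestrus (0.88 ± 0.13, adjusted p = 0.0058). Neither gene's groups overlapped. Car3, a carbonic anhydrase abundant in fat, was called only with the replicate block (0.99 ± 0.28, adjusted p = 0.23 without the block and 0.0023 with it). The summed intensity of the tested genes was 7213 to 7353 at estrus and 5855 to 6140 at proestrus, whereas the fat cell genes Fabp4, Plin1 and Retn were detected on none of the 6 arrays. The part of fat cells in the metabolic rises was not tested.

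Among 16 steroid receptors and coregulators tested, 2 rose and 1 fell, with a median difference of -0.03. Esr1, the main estrogen receptor of the oviduct, was at 11.34, 11.18 and 10.997 at estrus and at 11.28, 11.17 and 10.88 at proestrus, and the groups overlapped (0.06 ± 0.20, adjusted p = 1). Pgr, the progesterone receptor, was at 7.72, 7.72 and 7.95 at estrus and at 8.46, 8.71 and 8.58 at proestrus (-0.78 ± 0.14, adjusted p = 0.023). It thus fell with no overlap, and the call was lost without any single array except proestrus 1 (adjusted p 0.051 to 0.13). Esr2 was at 6.87, 7.01 and 6.75 at estrus and at 5.02, 6.03 and 5.27 at proestrus, where 1 of 3 arrays detected it (1.44 ± 0.22, adjusted p = 0.0066). Fkbp5, a chaperone of steroid receptors that glucocorticoids and progestins induce, was at 8.57, 8.30 and 8.32 at estrus and at 7.57, 7.26 and 7.68 at proestrus (0.89 ± 0.14, adjusted p = 0.0088). Esr2 and Fkbp5 were called whichever array was left out, but not in the fit of the 6 arrays alone without the block.

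Known targets of estradiol in the female tract went both ways. Of 29 tested, 4 rose and 4 fell, and the median difference was 0.05. The rises were Sprr2d, Prap1, Clca1 and Txnip, an inhibitor of thioredoxin that was at 12.39, 12.39 and 12.39 at estrus and at 11.55, 11.85 and 11.79 at proestrus (0.66 ± 0.13, adjusted p = 0.033). The Txnip call was lost without any single one of the 6 arrays (adjusted p 0.074 to 0.15). The falls were Aqp8, Ramp3, Padi2 and Pgr. Greb1, a direct target of the estrogen receptor, was at 10.48, 10.43 and 10.60 on the estrus arrays and at 10.81, 10.91 and 10.84 on the proestrus arrays. Igf1, a growth factor that estradiol induces in the uterus, was at 10.23, 10.44 and 10.44 at estrus and at 10.85, 10.76 and 10.96 at proestrus. Both were lower on each estrus array than on any proestrus array but did not pass (-0.35 ± 0.11, adjusted p = 0.35 for Greb1, and -0.49 ± 0.16, adjusted p = 0.36 for Igf1). Of 16 progesterone-induced genes tested, Fkbp5 rose and Lrat fell (median difference 0.03). With the replicate block this list had 2 rises and 3 falls, Cyp26a1, which degrades retinoic acid, among them (-1.01 ± 0.24, adjusted p = 0.093 without the block and 0.014 with it).

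Rem2, Ccl11 and Ramp3 had the largest differences among the 16 genes that fell. Rem2, a small GTPase that restrains calcium channels, was at 6.21, 6.27 and 6.32 at estrus and at 7.72, 7.45 and 7.49 at proestrus, 2.44-fold lower (-1.28 ± 0.16, adjusted p = 0.0013). Ccl11, the chemokine eotaxin that attracts eosinophils, was at 8.88, 9.15 and 9.07 at estrus and at 10.14, 10.34 and 10.28 at proestrus (-1.22 ± 0.14, adjusted p = 0.00077). In both genes every estrus array lay below every proestrus array, though a dimmer Ccl11 probe did not pass (-1.20). Ramp3, which turns the calcitonin receptor-like receptor into an adrenomedullin receptor, was at 9.13, 9.35 and 9.50 at estrus and at 10.20, 10.51 and 10.59 at proestrus (-1.10 ± 0.18, adjusted p = 0.0088), a call lost without proestrus 2 or proestrus 3 (adjusted p 0.051 to 0.057), which did not hold either when its probes were averaged, and its dimmer probes did not pass (-0.81 and -0.92). Aqp8, a water channel, was at 8.60, 8.88 and 8.85 at estrus and at 9.92, 9.68 and 9.86 at proestrus (-1.04 ± 0.12, adjusted p = 0.0011), and its second probe also fell (-0.94). Zfp985, a zinc finger gene, was detected on all proestrus arrays and on no estrus array, at least 1.49-fold lower (adjusted p = 0.0037). Cyth4, a guanine nucleotide exchange factor of white blood cells, was at 7.005, 7.24 and 7.09 at estrus and at 8.34, 8.14 and 7.90 at proestrus (-1.01 ± 0.14, adjusted p = 0.004). Lrat, which esterifies retinol for storage, was at 8.07, 8.38 and 8.20 at estrus and at 8.98, 9.29 and 9.04 at proestrus (-0.88 ± 0.13, adjusted p = 0.0059).

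The calls of the other falls were lost when certain single arrays were left out, though their differences kept their sign. Padi2, a peptidylarginine deiminase, fell (-0.86 ± 0.16, adjusted p = 0.023), a call lost without estrus 1, estrus 2, proestrus 2 or proestrus 3 (adjusted p 0.091 to 0.13). Hspb7, a small heat shock protein, fell (-0.86 ± 0.15, adjusted p = 0.019), a call lost without estrus 2, estrus 3, proestrus 1 or proestrus 3 (adjusted p 0.085 to 0.12). Arg1, the arginase that splits arginine, was at 9.22, 8.97 and 8.84 at estrus and at 9.92, 9.65 and 9.57 at proestrus (-0.70 ± 0.14, adjusted p = 0.033), a call lost without any single array except estrus 1 (adjusted p 0.068 to 0.19). Tmem158, a membrane protein gene, fell (-0.76 ± 0.15, adjusted p = 0.027), a call lost without any single array except proestrus 2 (adjusted p 0.078 to 0.16). Of the other four, the call of the surface protein Ly6h (-0.77 ± 0.15, adjusted p = 0.033) was lost without any single one of the 6 arrays (adjusted p 0.069 to 0.14), that of the growth factor-binding protein Igfbp2 (-0.61 ± 0.12, adjusted p = 0.033) was lost without any single one of the 6 arrays (adjusted p 0.11 to 0.15), that of the kinase Dclk1 (-0.59 ± 0.11, adjusted p = 0.019) was lost without any single one of the 6 arrays (adjusted p 0.064 to 0.11), and that of the tight junction protein Cldn23 (-0.55 ± 0.10, adjusted p = 0.026) was lost without any single one of the 6 arrays (adjusted p 0.056 to 0.14). The second probe of Igfbp2 did not pass (-0.32), nor did the other probes of Ly6h (-0.60 and -0.64), and both calls were lost when the probes of a gene were averaged.

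Some further gene groups of the oviduct held calls at 4.76% to 12.5% of their tested genes, against 1.02% over all genes tested. The lists were chosen with earlier results of these data known. Of 34 chemokines, interleukins and receptors tested, Cxcl1, a neutrophil attractant, rose, at 6.72, 6.94 and 6.80 at estrus against 5.94, 5.43 and 5.76 at proestrus (1.11 ± 0.19, adjusted p = 0.014), and Ccl11 fell. Cxcl1 was detected on 1 of 3 proestrus arrays, and its call was lost without estrus 2, estrus 3, proestrus 2 or proestrus 3 (adjusted p 0.057 to 0.084). Of 16 genes of endothelin, oxytocin and contraction signals, none rose and 2 fell, Ramp3 and Arg1. With the replicate block 4 fell, Edn2 (-0.40 ± 0.16, adjusted p = 0.59 without the block and 0.028 with it) and Npr2 being added. Of 30 genes of Wnt, Notch and Hedgehog signalling, 2 rose, Sfrp4 and Fzd10, a Wnt receptor (1.06 ± 0.19, adjusted p = 0.018). The Fzd10 call was lost without estrus 2, estrus 3, proestrus 2 or proestrus 3 (adjusted p 0.092 to 0.11) and when its probes were averaged. Its probe used here was detected on 1 of 3 proestrus arrays, and its second probe, undetected at proestrus, did not pass. Of 24 ion and water transport genes, Clca1 rose and Aqp8 fell. With the block the water channel Aqp1 rose as well (0.56 ± 0.16, adjusted p = 0.22 without the block and 0.034 with it) and Aqp5 fell (-0.46 ± 0.13, adjusted p = 0.22 without the block and 0.025 with it). Of 21 genes of antigen presentation, H2-K1, a class I heavy chain with close relatives, rose (0.79 ± 0.15, adjusted p = 0.031), a call lost without any single array except estrus 2 (adjusted p 0.087 to 0.17) and when its probes were averaged, while its second probe was undetected at both stages.

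In several lists no gene was called without the block. Over all genes tested 1.02% were called, so lists of this size would often hold none. This held for 24 genes of the cell cycle (median difference 0.18), 24 metalloproteinases and inhibitors (0.12), 13 complement genes (0.10), 23 interferon response genes (0.10), 22 immediate-early genes (0.06), 16 clock genes (-0.08), 25 genes of the endoplasmic reticulum (-0.11) and 18 of cholesterol synthesis (-0.16). It also held for the lists of smooth muscle, endothelium, mesothelium, macrophages, eosinophils and mast cells, lymphocytes and erythrocytes. With the replicate block, 4 metalloproteinase and inhibitor genes rose, against 2.22% of all genes tested. Mmp3, a stromelysin, was at 6.55, 6.59 and 6.65 at estrus and at 5.32, 6.18 and 5.35 at proestrus, where 2 of 3 arrays detected it (0.98 ± 0.21, adjusted p = 0.052 without the block and 0.011 with it), and Mmp11, Mmp10 and Timp1 were the others. Retinoid handling, with Lrat as its one call of 19 and a median of -0.20, had 3 falls with the block, adding Cyp26a1 and Adh1, an alcohol dehydrogenase (-0.56 ± 0.18, adjusted p = 0.35 without the block and 0.0087 with it). The block also added 3 interferon response genes, Oas2, Rsad2 and Gbp3, as rises, 2 cell cycle genes, Cdca3 and Nusap1, and the clock gene Nr1d1 (0.79 ± 0.18, adjusted p = 0.087 without the block and 0.00078 with it).

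**Figure D2:**
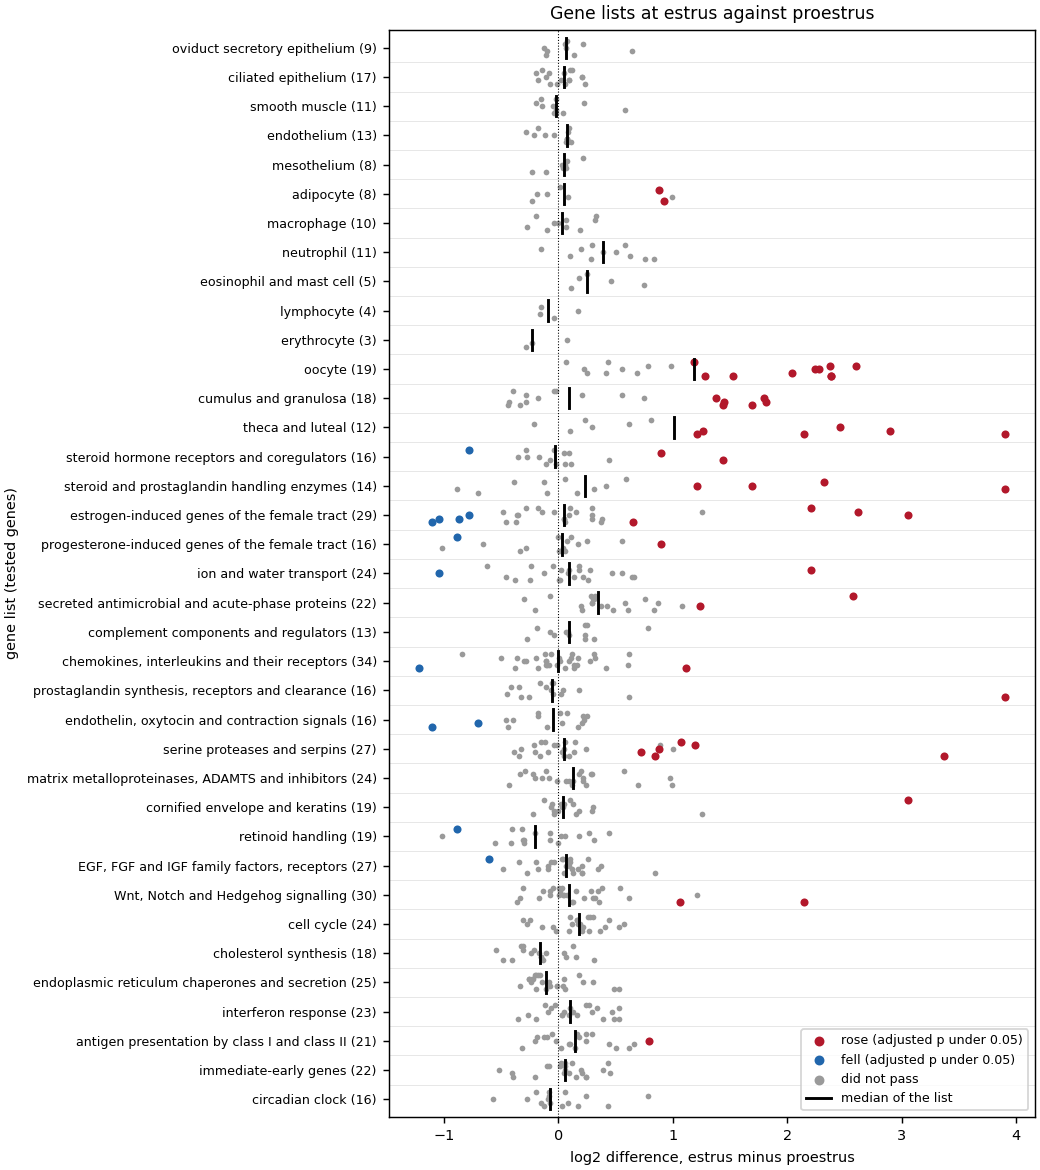
Each point is a tested gene of the list named at the left, placed by its log2 difference, estrus minus proestrus; genes undetected at a stage are drawn at their fitted difference, black bars are list medians, red and blue points are genes that rose or fell, and grey points did not pass. The oocyte list and the theca and luteal list have medians of 1.19 and 1.01, and the medians of the other lists lie between -0.23 and 0.39, but over members detected on all 6 arrays the theca and luteal median is 0.30 and the oocyte median 1.72, against 0.32 for the antimicrobial list.

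Outside the lists, the block called further genes. Pank1, a pantothenate kinase of coenzyme A synthesis, was at 8.99, 9.33 and 9.45 at estrus and at 7.75, 8.42 and 8.50 at proestrus (1.04 ± 0.26, adjusted p = 0.13 without the block and 0.00016 with it). Each estrus array stood above its proestrus array of the same number, with replicate 1 lowest in both groups. Tnc, a matrix glycoprotein, showed the same arrangement, at 8.29, 8.63 and 8.77 at estrus and at 7.39, 8.08 and 8.10 at proestrus (0.71 ± 0.24, adjusted p = 0.38 without the block and 0.0017 with it). Itga11, Bhlha15, Sp5 and Them5 were further rises called with the block, with differences of 0.77, 0.77, 0.84 and 0.91, as was Lgi1, which was undetected at proestrus and at least 1.35-fold higher. Bcat1, which breaks down branched-chain amino acids, was at 13.02, 12.60 and 12.64 at estrus and at 13.64, 13.39 and 13.35 at proestrus (-0.71 ± 0.17, adjusted p = 0.12 without the block and 0.0011 with it). Emb, a cell adhesion protein, was at 11.41, 11.004 and 11.05 at estrus and at 12.40, 12.24 and 12.06 at proestrus (-1.08 ± 0.24, adjusted p = 0.072 without the block and 0.007 with it). Replicate 1 was the highest array of each group in both genes. Ldoc1, Cryz, Dio3, Mogat2, Tex2, Pak3 and Ctse were other falls called with the block, with differences between -0.79 and -0.54.

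The difference held its sign within each array set. For all 103 genes, estrus minus proestrus had the same sign in replicate 1 as in the mean of replicates 2 and 3, although the calls had used all these arrays. Akr1c18 differed by 4.11 in replicate 1 and by 3.80 in replicates 2 and 3, Mgarp by 2.75 and 2.98, and Rem2 by -1.50 and -1.17. In replicates 2 and 3 alone, 186 genes were called, 98 of the 103 among them, and the others were Star, H2-K1, Txnip, Cldn23 and Igfbp2. A limma contrast of the difference in replicate 1 against that in replicates 2 and 3 called 0 genes (0%), with 349 genes at an unadjusted p under 0.05. Replicate 1 holds 1 array per stage, so the spread in this contrast came from replicates 2 and 3 alone, and it does not show that the sets are alike.

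**Figure D3:**
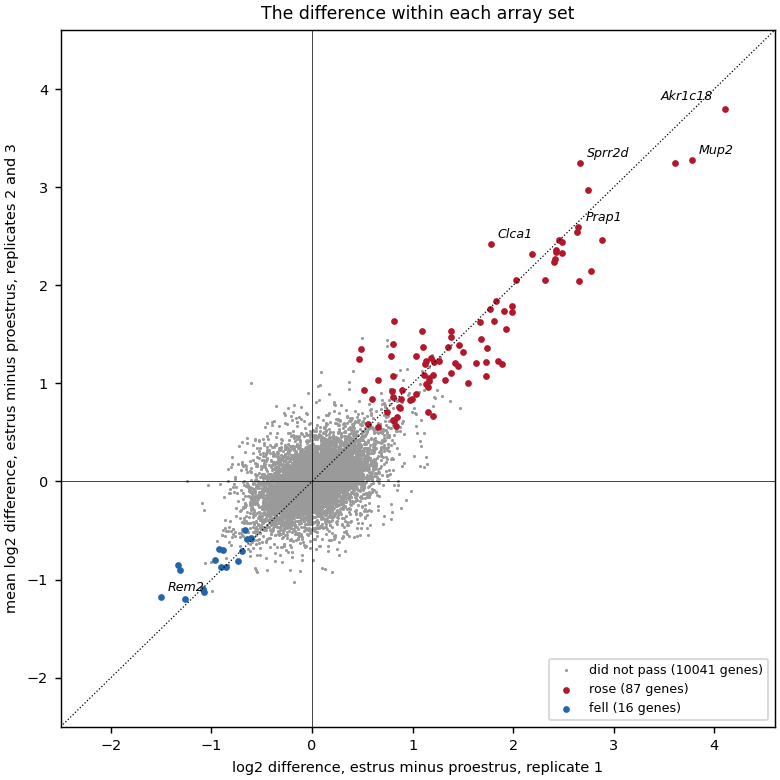
Each point is 1 of the 10144 genes tested, with its log2 difference, estrus minus proestrus, in replicate 1 on the x axis and in the mean of replicates 2 and 3 on the y axis. The 87 genes that rose (red) and the 16 that fell (blue) lie on the same side of 0 in both sets.

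The step into estrus was set against diestrus minus metestrus, the one other step of the cycle that shares no array with it. The contrast of both differences called 43 genes (0.424%), 36 higher (0.355%) and 7 lower (0.069%) for the step into estrus, and 40 of them belonged to the 103. Akr1c18 differed most (5.60 ± 0.21, adjusted p = 9.5e-08), since its difference was 3.90 into estrus and -1.70 between metestrus and diestrus. Cyp11a1 (2.59 ± 0.19, adjusted p = 4.3e-05) and Prss35 (3.53 ± 0.26, adjusted p = 4.3e-05) had diestrus minus metestrus differences of -0.14 and -0.16. Sprr2d, undetected at proestrus, passed as well (adjusted p = 0.00019). Of the oocyte genes, Nlrp14 (1.504, adjusted p = 0.038) passed this contrast, as did Bmp15 and Bcl2l10, both undetected at proestrus (adjusted p = 0.0073 and 0.0021). Gdf9 (1.63, adjusted p = 0.4) and Ooep (1.71, adjusted p = 0.17) did not pass without the replicate block and did with it (adjusted p = 9e-04 and 0.011). Padi6, Nlrp5 and Oas1d likewise passed only with the block. The other oocyte genes that rose, Oosp1 and Tcl1, did not pass with the block either (adjusted p = 0.059 and 0.2). Serpina1d passed (1.68, adjusted p = 0.00019), with a difference of 0.84 into estrus and -0.84 between metestrus and diestrus. Among the falls, Zfp985, Rem2, Cyth4, Aqp8 and Ccl11 passed. With the replicate block the contrast called 133 genes, and it called 26 without estrus 3.

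The courses over all 4 stages differed between genes. For 69 of the 87 genes that rose, the estrus mean was the highest of the 4 stage means, and for 15 of the 16 that fell the proestrus mean was, though the choice of genes favours both. Mgarp had means of 8.23 (proestrus), 11.13 (estrus), 7.53 (metestrus) and 7.38 (diestrus). Inha and Hsd17b1 had lower means at metestrus (6.35 and 6.14) than at proestrus (8.24 and 8.12). Other rises had higher means after estrus. Cyp2f2 had means of 9.45, 10.68, 11.13 and 11.24 in that order of stages, and Serpina1d had 7.26, 8.11, 9.67 and 8.83. Among the falls, Aqp8 had means of 9.82, 8.78, 6.68 and 6.73 over proestrus, estrus, metestrus and diestrus, and Arg1 had 9.71, 9.01, 6.69 and 6.67. Tmem158, the fall without its highest mean at proestrus, had 8.55, 7.79, 9.16 and 8.55 over the same stages. The estrus arrays enter both the step into estrus and the step out of it, so these means are a description.

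**Figure D4:**
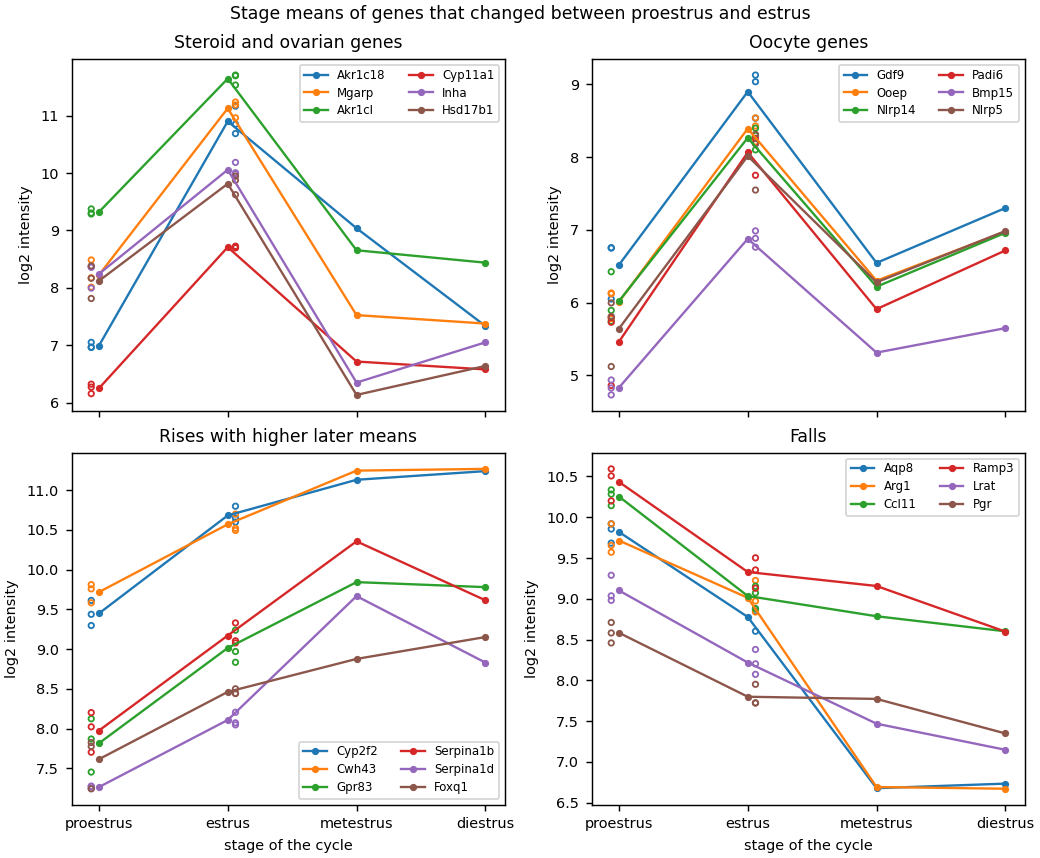
Lines join the mean log2 intensities (y axis) of named genes over proestrus, estrus, metestrus and diestrus (x axis), and open circles are the single estrus and proestrus arrays. The steroid, ovarian and oocyte genes have their highest mean at estrus, Cyp2f2 and Serpina1d have higher means later, and Aqp8 and Arg1 have lower means at metestrus and diestrus than at estrus.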

How the data were processed

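RNA of whole oviducts was measured on 12 Illumina bead arrays, 3 for each stage. The deposited table holds, per the file headers, an intensity for each probe and array and a detection p-value beside it, as the authors' scanner software gave them before normalization. A second deposited table holds normalized intensity values, some of them negative, and it was used as an alternative with values under 16 raised to 16. Its median was 46.7 on estrus 1 and 23.4 on estrus 2 and estrus 3. The rank correlation with the raw intensities was 1 on estrus 1 and 0.972 on estrus 2 and estrus 3. How these values were normalized was not established. For the scanner software, a name is not given in the sources used. The intensities were background-corrected, quantile normalized and set on a log2 scale with neqc (limma 3.58.1, R 4.3.3, offset 16) over all 12 arrays. Probes detected (p-value below 0.01) on at least 3 arrays were kept, which left 14778 of 25697 probes, 837 of them unnamed. The probe with the highest mean over the arrays stood for each of 2717 genes with several, giving 10144 tested genes of 16593 on the array. Gene names came from the platform's annotation, updated through RefSeq.

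The groups were compared with lmFit and eBayes over all 12 arrays without a block, and p-values were adjusted by Benjamini-Hochberg over all genes tested. Replicate numbers pair the arrays by the array set: deviations of same-numbered estrus and proestrus arrays from their stage means correlated at 0.81, 0.44 and 0.55, while pairs across the sets correlated at -0.53 to -0.69. Replicates 2 and 3, which share a set, also correlated across numbers, at 0.40 and 0.53. The number of arrays limits the precision. Named genes were Esr1, Pgr and Ovgp1, up to 30 of the largest rises and up to 20 of the largest falls without overlap or clone names, called list members and the members of lowest p of each list, up to 4, and up to 10 rises and 10 falls called only with the replicate block. The arrays compared, the gene lists and the rules were chosen with earlier results of these data known. The calculations were tested on simulated data. Alternatives were blocks, array subsets, background correction, offset, detection filter, probe choice, the deposited normalized values and leaving out each array.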

Additional observations from a re-analysis of the deposited data

How the results depend on the processing

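The count of 103 genes became 310 with the replicate block, 345 with the array set as a block, 186 in replicates 2 and 3 alone, 71 in the 6 arrays of both stages without a block (65 of the 103 among them) and 321 with it, 31 in the deposited normalized values and 265 in those values with the block. Leaving out 1 array gave 57 to 76 calls. The share of higher genes among the calls was 84.5%, against 72.2% with the array set block, 72.6% with the replicate block, 70.1% in the 6 arrays with the block and 100% in the deposited values. No call of the 103 was lost with the replicate block, and apart from the calls it added it changed no other call. The contrast with diestrus minus metestrus called 43 genes, against 133 with the replicate block and 108 in replicates 2 and 3 alone, and 26 to 38 when 1 array was left out. The cause of these changes was not tested, apart from the fewer arrays of the left-out fits. No called gene changed sign under any alternative run, and 24 of the 103 kept their call under each that tested them. The uncalled differences of Esr1 and Ovgp1 turned negative: Esr1 gave -0.021 without estrus 1 and -0.052 without proestrus 3 within a range that reached 0.151, and Ovgp1 gave -0.035 without estrus 1, -0.055 without proestrus 2 and -0.010 without proestrus 3 within a range that reached 0.296. Genes undetected at a stage have only a bound there, as 24 of the rises and 1 fall do.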
